A study of Mus musculus with 12 samples.

Results

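The regions described here were 663 stretches of the mouse genome that carried both H3K27ac and H3K27me3 in immature cortical interneurons (CINs). They were chosen by the peak lists themselves. Within a list, peaks were joined across gaps of up to 500 bp, a stretch of a mark was kept where both replicate lists covered it, and a shared H3K27ac stretch became a region with both marks where it overlapped a shared H3K27me3 stretch by at least 1 bp. The 663 regions were 1.85% of the 35768 shared H3K27ac stretches of CINs, and 680 of the 14915 shared H3K27me3 stretches of CINs (4.56%) met one of them. Without replicate 1 or without replicate 2 the number was 1500 and 1677. These counts, the lengths with both marks and the place within the H3K27me3 stretch follow from the choice and are given as a description.

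CINs were the GFP+ cells sorted by FACS from cortices of *Gad67-GFP* heterozygote pups at postnatal day (P)2, and non-CINs were the GFP- cells of the same tissue, which hold projection neurons and glia. Litters were pooled for a sort. Each population had 2 replicates of native ChIP-seq for H3K27ac and 2 for H3K27me3, so that 8 lists of broad peaks, called on each replicate separately against an input, were analysed. *Gad1* encodes GAD67, so that GFP marks cells that express it, and both populations carry the allele.

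H3K27ac and H3K27me3 are alternative modifications of the same lysine of histone H3. Acetylation by CBP and p300 marks active promoters and enhancers, and trimethylation by Polycomb repressive complex PRC2 marks silent or poised genes, above all CpG-rich promoters of developmental regulators. A single histone tail cannot carry both. In sorted populations a region with both marks can hold them on different cells, on the 2 alleles or on neighbouring nucleosomes, and these cannot be told apart here.

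The sequences below show what these regions look like. The first set is the centre of the part with both marks at the 3 regions where that part was longest and at a region near *Slc32a1*, read from mm10 on the plus strand with each CG dinucleotide in capitals. *Dlx6* and *Dlx1* are homeobox genes of the interneuron lineage, *Nr2f1* encodes a nuclear receptor of caudal ganglionic eminence and cortical patterning, and *Gm14204* is the transcript nearest to the region at *Slc32a1*, the vesicular GABA transporter gene.
Dlx6, non-coding exon, chr6:6869454-6869603, + strand, 1 CG: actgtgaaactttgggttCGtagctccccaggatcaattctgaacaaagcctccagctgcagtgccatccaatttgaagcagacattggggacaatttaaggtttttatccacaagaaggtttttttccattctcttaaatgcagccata
Dlx1, intron, chr2:71535918-71536067, + strand, 2 CG: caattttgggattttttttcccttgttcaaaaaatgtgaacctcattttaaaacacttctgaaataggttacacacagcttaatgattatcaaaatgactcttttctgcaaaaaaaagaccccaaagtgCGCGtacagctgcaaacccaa
Nr2f1, intron, chr13:78176007-78176156, + strand, 3 CG: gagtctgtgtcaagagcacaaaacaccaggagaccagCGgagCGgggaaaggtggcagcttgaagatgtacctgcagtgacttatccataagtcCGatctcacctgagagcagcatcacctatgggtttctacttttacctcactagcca
Gm14204 at Slc32a1, intron, chr2:158608598-158608747, + strand, 0 CG: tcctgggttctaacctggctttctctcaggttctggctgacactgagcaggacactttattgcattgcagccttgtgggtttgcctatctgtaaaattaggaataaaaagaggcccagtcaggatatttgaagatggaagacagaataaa
These windows held 0 to 3 CG in 150 bases.

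The second set is the stretch before the RefSeq transcription start (GRCm38.p6, the mm10 assembly), on the strand of the gene, of 4 genes whose whole 250 bases upstream carried both marks in CINs, without annotated UTR bases. *Gad1* makes GABA, *Sp9* is a zinc finger gene of the ganglionic eminences, *Pax6* is a homeobox gene of cortical progenitors, and *Olig2* is a bHLH gene of the oligodendrocyte lineage.
Gad1, chr2:70561892-70562041, + strand, 4 CG: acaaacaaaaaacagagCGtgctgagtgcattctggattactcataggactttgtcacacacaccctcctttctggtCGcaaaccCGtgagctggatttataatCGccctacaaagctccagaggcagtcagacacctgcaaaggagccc
Sp9, chr2:73271775-73271924, + strand, 15 CG: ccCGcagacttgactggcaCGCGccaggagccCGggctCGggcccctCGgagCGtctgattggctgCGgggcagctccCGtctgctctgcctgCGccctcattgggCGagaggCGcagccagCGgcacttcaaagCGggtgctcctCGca
Pax6, chr2:105682313-105682462, + strand, 6 CG: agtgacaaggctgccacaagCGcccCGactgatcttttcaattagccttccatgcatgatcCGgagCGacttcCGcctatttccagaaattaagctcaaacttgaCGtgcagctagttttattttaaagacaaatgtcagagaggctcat
Olig2, chr16:91225307-91225456, + strand, 14 CG: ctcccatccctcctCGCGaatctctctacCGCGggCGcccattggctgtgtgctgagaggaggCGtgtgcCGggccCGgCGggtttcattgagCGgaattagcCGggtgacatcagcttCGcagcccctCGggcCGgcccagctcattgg
These 4 promoters differed in CG number from 4 at *Gad1* to 15 at *Sp9*. In non-CINs the regions that hold the *Gad1* and *Sp9* promoters had H3K27me3 only, and those that hold the *Pax6* and *Olig2* promoters had both marks.

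The third set is the centre of the part with both marks at 2 regions that had no H3K27me3 in non-CINs, in the same format as the first. *Etv4* encodes an ETS factor downstream of FGF signalling, and *Gm15966* is a non-coding RNA gene.
Etv4, intron, chr11:101783723-101783872, + strand, 4 CG: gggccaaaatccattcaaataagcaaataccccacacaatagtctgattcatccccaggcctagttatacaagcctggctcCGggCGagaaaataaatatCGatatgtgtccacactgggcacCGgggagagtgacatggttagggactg
Gm15966, intron, chr16:91301397-91301546, + strand, 11 CG: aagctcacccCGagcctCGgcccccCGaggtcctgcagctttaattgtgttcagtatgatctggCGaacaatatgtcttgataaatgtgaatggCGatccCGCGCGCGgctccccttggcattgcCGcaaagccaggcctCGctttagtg
The window at *Gm15966* held 11 CG and that at *Etv4* held 4.

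Most of the overlaps were short. The part with both marks had a median of 385 bp per region (quartiles 213 and 817.5 bp), which was a median of 54.8% of the region's length. It reached 200 bp in 523 regions (78.9%), 1000 bp in 130 and 5000 bp in 17, and the longest was 26397 bp. Just inside the threshold lay 32 regions with fewer than 50 bp, down to 1 bp at *Hey2*. Just outside it lay 31 shared H3K27ac stretches that ended 50 bp or less from a shared H3K27me3 stretch. A further 857 H3K27ac stretches met H3K27me3 in 1 of the CIN lists only.

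Most regions lay across an edge of an H3K27me3 stretch or inside it, and which came first depended on the settings. As defined here, 321 regions (48.4%, 95% Wilson interval 44.6 to 52.2) lay across an edge, 232 (35.0%, 31.5 to 38.7) lay wholly inside an H3K27me3 stretch, and 110 (16.6%, 14.0 to 19.6) held a whole H3K27me3 stretch within a longer H3K27ac region. The share inside was 41.3% among regions with at least 200 bp of both marks, 52.6% where H3K27me3 was the union of both replicates, and 67.1% where at least 50% of the H3K27ac stretch had to carry both marks. The interior regions were short islands of H3K27ac, with a median of 510 bp in H3K27me3 stretches of a median 4395 bp. Of these, 155 had their centre nearer to the middle of the stretch than to its edge. Lying wholly inside keeps the centre off the edge, so this count by itself shows no preference for the middle. Regions of the third kind had a median length of 2481 bp around an H3K27me3 stretch of 403 bp. Of the H3K27me3 stretches, 52 held 2 or more regions, up to 5.

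**Figure D1:**
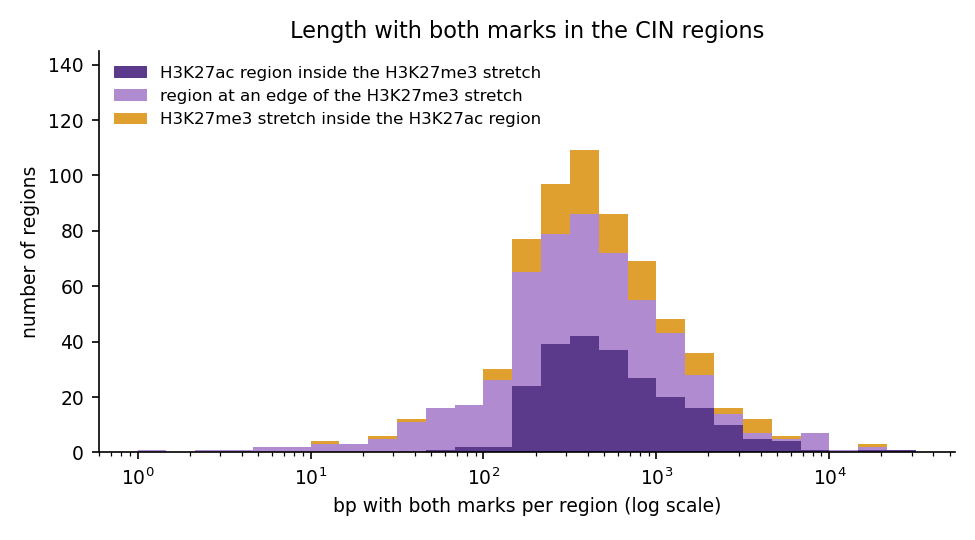
Number of CIN regions (vertical axis) by bp with both marks (horizontal axis, log scale), coloured by the place of the H3K27ac region relative to the shared H3K27me3 stretch. The peak of the distribution lies near the median of 385 bp, and 59 of the 65 overlaps under 100 bp are at edges.

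Regions with both marks were promoter-rich and CpG-rich. A promoter, taken as 1 kb upstream to 100 bp downstream of a transcription start site (TSS), was met by 346 of the 663 regions (52.2%, 48.4 to 56.0) and by 11033 of the 35105 other H3K27ac stretches (31.4%), where 31.8% of all stretches did so. The odds ratio was 2.38 (95% interval 2.04 to 2.78, Fisher's exact test, two-sided and across regions, adjusted *p* = 2e-27). CpG-rich sequence, with a GC content of at least 50% and a CpG observed over expected of at least 0.6, was found in 239 of the 652 regions on assembled chromosomes (36.7%) and in 20.7% of the other stretches, where 21% of all stretches were CpG-rich (odds ratio 2.22, 1.89 to 2.61, Fisher's exact test, adjusted *p* = 2.8e-20). The median GC content was 54.3% against 49.5%, and the median CpG observed over expected was 0.552 against 0.304. Neighbouring regions are not independent, so that these *p* values, adjusted over 3 properties, are likely too small. Among the other settings, the promoter odds ratio was lowest where at least 50% of the stretch had to carry both marks (1.34, Fisher's exact test, adjusted *p* = 0.009) and highest with the widest promoters tried, on both sides of a TSS (4.30), and it was 3.87 without replicate 2. The share at a promoter was 38.4% and 72.2% under the first and second of these. The CpG odds ratio was lowest with a −log10 *q* of at least 4 (1.35, Fisher's exact test, adjusted *p* = 0.022) and was 5.47 without replicate 2.

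The direction of these differences was the same in bins of length. Regions with both marks were longer than the other stretches (median 1057 against 821 bp). When all stretches were divided by length into 4 bins of similar size, the regions were more often at promoters in each bin, from 27.3% against 10.5% in the shortest to 71.1% against 55.2% in the longest. The CpG-rich share was 29.9% against 7.02% in the shortest bin and 38.0% against 34.8% in the longest.

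**Figure D2:**
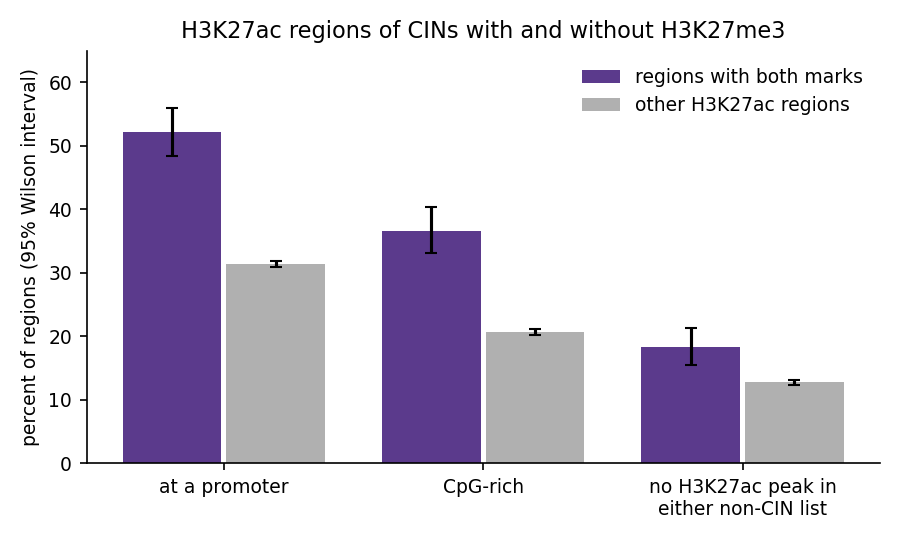
Percent of regions (vertical axis, error bars 95% Wilson intervals) at a promoter, CpG-rich, or lacking H3K27ac in both non-CIN replicates, for the 663 CIN regions with both marks and the other H3K27ac regions of CINs. The bars for regions with both marks are higher in all 3 properties, by most at promoters (52.2% against 31.4%).

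The centre of the part with both marks fell in an intron in 328 regions, in a promoter in 148, between genes in 111, in a UTR in 31, in a coding exon in 28 and in a non-coding exon in 17. A TSS lay inside 273 regions, and 97 were over 10 kb from one. The regions had 562 different nearest genes. *Nxph1*, a neurexophilin gene expressed by interneurons, had 5 regions, and 16 genes had 3 each. These were the transcription factor genes *Sp8*, *Sp9*, *Gsx2*, *Pax6*, *Emx1*, *Fezf2*, *Nr2f2*, *Olig2*, *Ets1* and *Myt1l*, with *Gad1*, *Grik3*, *Gm10421*, *Gm10717*, *Gm18345* and *Gm5089*. Chromosome 2, which holds *Dlx1*, *Dlx2*, *Gad1*, *Gad2*, *Sp9*, *Slc32a1* and *Pax6*, had 84 regions (12.7%) against 7.92% of all H3K27ac stretches.

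The homeodomain core TAATTA was found in few of these regions. It is its own reverse complement, so that a match covers both strands, and it was present in the central 200 bp of 23 of 652 regions (3.53%) and 5.45% of the other H3K27ac stretches. Among regions without H3K27ac in non-CINs the share was 10 of 120 (8.33%, 4.59 to 14.7), beside 10.6% of all CIN stretches without non-CIN H3K27ac.

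In non-CINs, the regions carried both marks more often than any other combination. Both marks met the region in both non-CIN replicates in 273 regions (41.2%, 37.5 to 45.0), H3K27me3 alone did so in 113 (17.0%, 14.4 to 20.1) and H3K27ac alone in 88 (13.3%, 10.9 to 16.1). The other 189 had combinations that differed between replicates, or, in 1 region, neither mark in either non-CIN replicate. By single non-CIN list, H3K27ac met 75.1% and 72.7% of the regions, beside 83.9% and 80.1% of all H3K27ac stretches of CINs. H3K27me3 met 73.6% and 80.8% of the regions, beside 2.95% and 3.74% of all, and the regions were chosen on H3K27me3 in CINs. The marks could meet different parts of a region. Where only the part with both marks was read, 33.5% had both in both non-CIN replicates. Stretches shared by both non-CIN replicates carried both marks at 397 places, 1.14% of their H3K27ac stretches, and 233 of the CIN regions overlapped one of these. Over single replicate lists, the share of merged H3K27ac peaks that met H3K27me3 was 3.12% and 3.78% in CINs, against 2.83% and 2.42% in non-CINs. The population values did not overlap, but with 2 samples a group the smallest two-sided *p* that an exact test can give is 0.333.

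**Figure D3:**
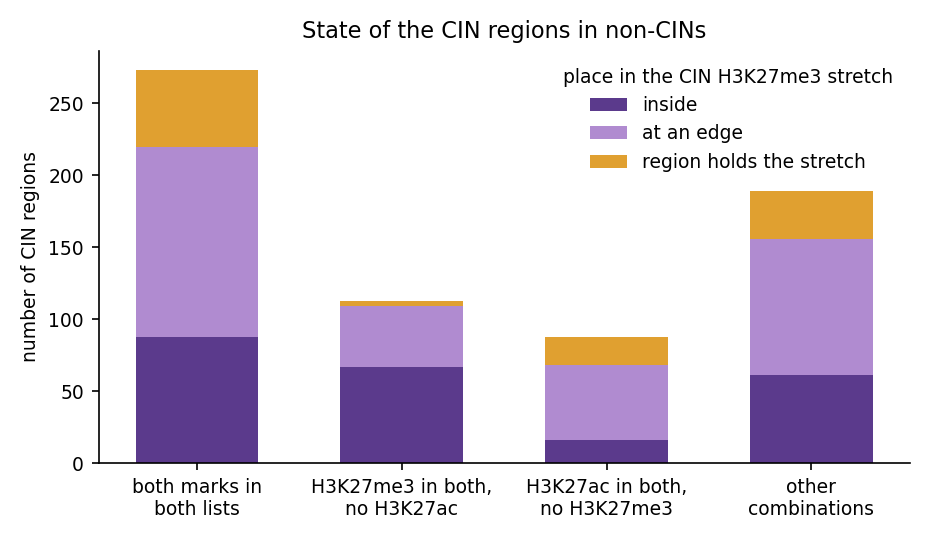
Number of the 663 CIN regions (vertical axis) by their state in the non-CIN lists, coloured by their place in the CIN H3K27me3 stretch. Regions with H3K27me3 alone in non-CINs were mostly inside the stretch (67 of 113), and those with H3K27ac alone were mostly at an edge (52 of 88).

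Absence of H3K27ac from non-CINs was somewhat more frequent among these regions than among other H3K27ac stretches, in a comparison that missed the threshold under a reciprocal overlap of 50% between replicates (odds ratio 1.42, Fisher's exact test, adjusted *p* = 0.064). H3K27ac was absent from both non-CIN lists at 121 regions (18.3%, 15.5 to 21.4) and at 12.7% of the other stretches, where 12.8% of all stretches had none (odds ratio 1.53, 1.25 to 1.87, Fisher's exact test, adjusted *p* = 6.3e-05). Without replicate 1 the share was 29.1% with an odds ratio of 1.35, and without replicate 2 it was 34.6% with an odds ratio of 1.14. In these settings absence was read in the remaining non-CIN list only. The same direction held in each bin of length, with 32.6% against 28.3% in the shortest and 7.51% against 2.28% in the longest. Absence of H3K27me3 from both non-CIN lists was found for 97 regions (14.6%, 12.1 to 17.5), beside 7.38% of all shared H3K27me3 stretches of CINs. The second comparison sets H3K27ac regions beside H3K27me3 stretches and was not tested. Without replicate 1 or without replicate 2, 30.3% and 25.6% lacked H3K27me3 in the remaining non-CIN list. Where the whole CIN H3K27me3 peaks that met a region were read by replicate number, 8.14% lacked it. Read the other way, 21 of the 397 non-CIN places lacked H3K27ac in both CIN lists (5.29%), and 21 lacked H3K27me3 in both. H3K27me3 alone lay in both CIN replicates at 20 places, H3K27ac alone at 20 and both marks at 236 (59.4%). The same shares over all non-CIN stretches are not given here, so that the 2 directions cannot be compared.

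The groups by state in non-CINs differed in length as well as in position and promoters, in values given with no test. The median region length was 635 bp with H3K27me3 alone in non-CINs, 1008 bp with H3K27ac alone, 1543 bp with both marks and 658 bp in the other 189. Over all regions 35.0% lay inside the stretch and 52.2% met a promoter. Of the 113 regions with H3K27me3 alone in non-CINs, 67 (59.3%) lay inside the H3K27me3 stretch and 40 (35.4%) met a promoter. Of the 88 with H3K27ac alone, 16 (18.2%) lay inside and 52 (59.1%) met a promoter. The 273 with both marks in both populations were in between in position, with 88 inside (32.2%), and met a promoter in 60.1%. The other 189 met one in 47.6%. The part that length had in these shares was not tested.

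The interneuron genes that the study follows led the group with H3K27me3 alone in non-CINs. *Dlx5* and *Dlx6* shared 1 region (chr6:6856331-6882727), in which H3K27ac covered 26397 bp in both CIN lists and 0 bp in both non-CIN lists, and H3K27me3 covered all 26397 bp in all 4 lists. It lay inside an H3K27me3 stretch of 40099 bp. *Dlx1* and *Dlx2* shared a region of 21683 bp (chr2:71525535-71547217). Its H3K27ac covered 21683 bp in both CIN lists and 0 bp in both non-CIN lists, and its H3K27me3 covered 21039 and 21683 bp in CINs and 21683 bp in both non-CIN lists.

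*Gad1* and *Slc32a1* also had H3K27me3 alone in non-CINs, and *Gad2* had both marks there. At *Gad1* (chr2:70560338-70566190) H3K27ac and H3K27me3 both covered 5853 bp in each CIN list, and non-CINs had 0 bp of H3K27ac and 5853 bp of H3K27me3 in each list. At *Slc32a1* the region of 4121 bp (chr2:158606193-158610313) had H3K27me3 over 3282 and 4107 bp in the CIN lists, against 3500 and 4121 bp in non-CINs, with H3K27ac over 4121 bp in each CIN list and 0 bp in non-CINs. *Gad2*, the second glutamate decarboxylase gene, had a region of 9199 bp (chr2:22619349-22628547), in which H3K27ac covered 9199 bp in both CIN lists and 215 and 652 bp in the non-CIN lists. Its H3K27me3 covered 8136 and 9199 bp in the CIN lists, against 8627 and 9199 bp in non-CINs, and by the 1 bp rule it counts among the regions with both marks in both populations.

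Transcription factor genes of the ganglionic eminences and a receptor gene also belonged to this group. *Sp9* had 2 such regions of 6112 and 3303 bp, both inside an H3K27me3 stretch of 19374 bp. Of the 3 regions nearest to its paralog *Sp8*, those of 4712 and 251 bp also belonged here, and the other is not described. At each region whose length is given, H3K27ac covered the whole region in CINs and none of it in non-CINs. H3K27me3 covered all of it in all 4 lists. *Grik3*, a kainate receptor gene, was the only gene of a list of 47 ion channel and receptor genes with a region at its promoter (2.13%, beside 1.37% of all protein-coding genes), with 1319 of 1387 bp carrying both marks. The regions nearest to *Gm14339* and *Gm20208*, both non-coding RNA genes, had 1599 and 157 bp with both marks. Under a reciprocal overlap of 50% between replicates, both marks no longer met at either of these *Sp9* regions, at *Grik3* or at *Gm14339*. At a −log10 *q* of 4 the shorter *Sp9* region had 704 bp, and without replicate 1 *Gm20208* had 1203 bp.

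**Figure D4:**
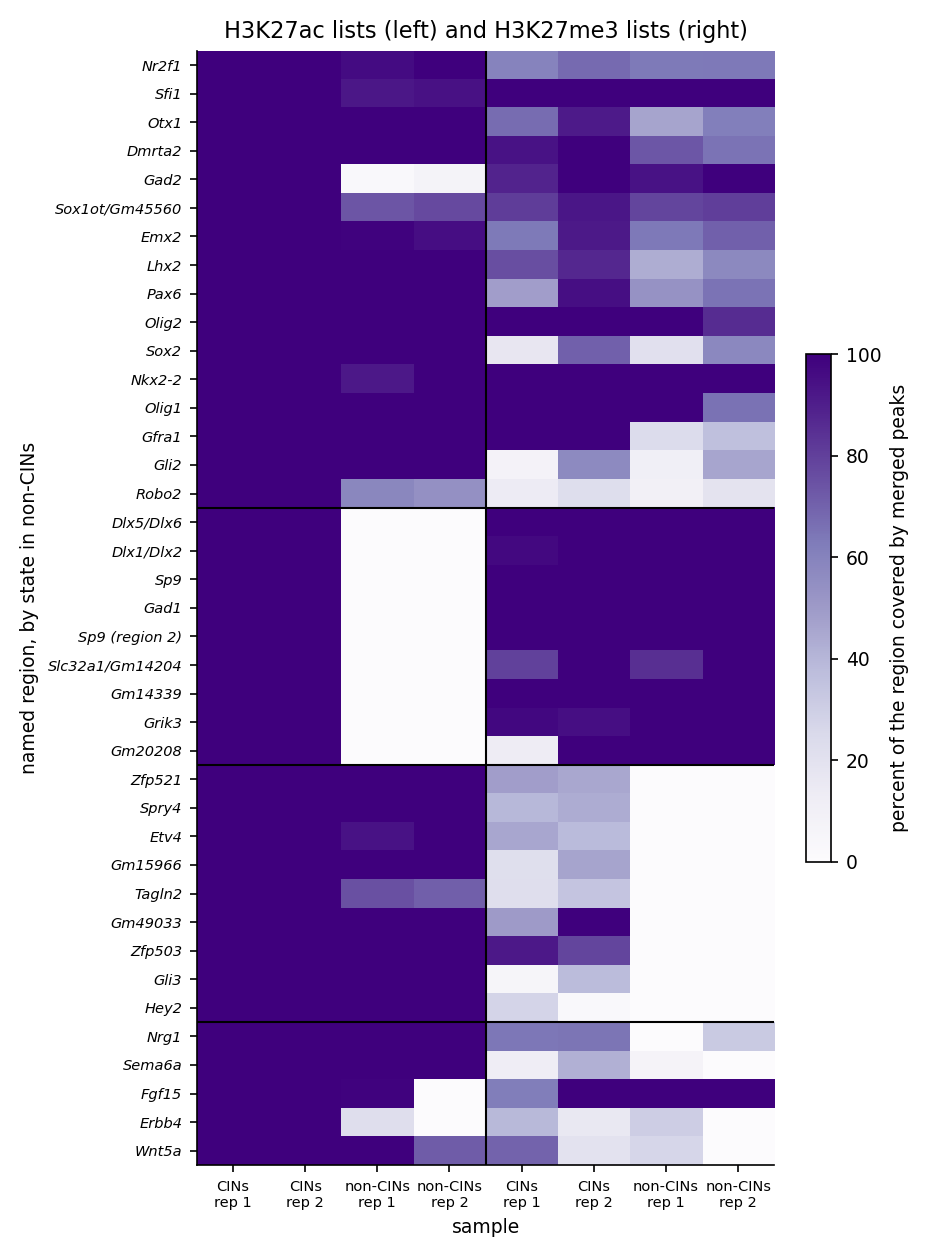
Percent of each named region (rows, grouped by horizontal lines into both marks, H3K27me3 alone, H3K27ac alone and other states in non-CINs) covered by merged peaks in each of the 8 samples (columns), with H3K27ac lists left of the vertical line and H3K27me3 lists right of it. H3K27ac covers every region in CINs by the choice of regions, is at 0 in non-CINs from *Dlx5/Dlx6* to *Gm20208*, and H3K27me3 is at 0 in non-CINs from *Zfp521* to *Hey2*.

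Regions with H3K27me3 alone in non-CINs often had a lower H3K27me3 rank in CINs than in non-CINs. The rank was the percentile, within its own list, of the fold enrichment of the strongest peak that met the region. At *Dlx5/Dlx6* the H3K27me3 percentile was 99.0 and 99.4 in CINs and 99.9 in both non-CIN lists. At *Gad1* it was 93.4 and 97.3 in the CIN lists, against 99.1 and 98.9 in non-CINs. Of the 112 regions with H3K27me3 alone in non-CINs and an H3K27me3 peak in all 4 lists, 70 (62.5%) were lower in both CIN lists than in both non-CIN lists and 4 (3.57%) were higher, whereas of all shared H3K27me3 stretches of CINs 24.9% were lower and 10.1% higher.

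The regions with both marks in both populations did not show this. Of 272 with H3K27me3 in all 4 lists, 51 (18.8%) were lower in both CIN lists and 70 (25.7%) were higher. H3K27ac ranked lower in both CIN lists at 86 of 273 of them (31.5%) and higher at 69 (25.3%), beside 26.6% and 18% of all H3K27ac stretches present in all 4 lists. At regions with H3K27ac alone in non-CINs, H3K27ac ranked lower in both CIN lists at 49 of 88 (55.7%) and higher at 6. No test was run on these ranks, which compare lists of different length.

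**Figure D5:**
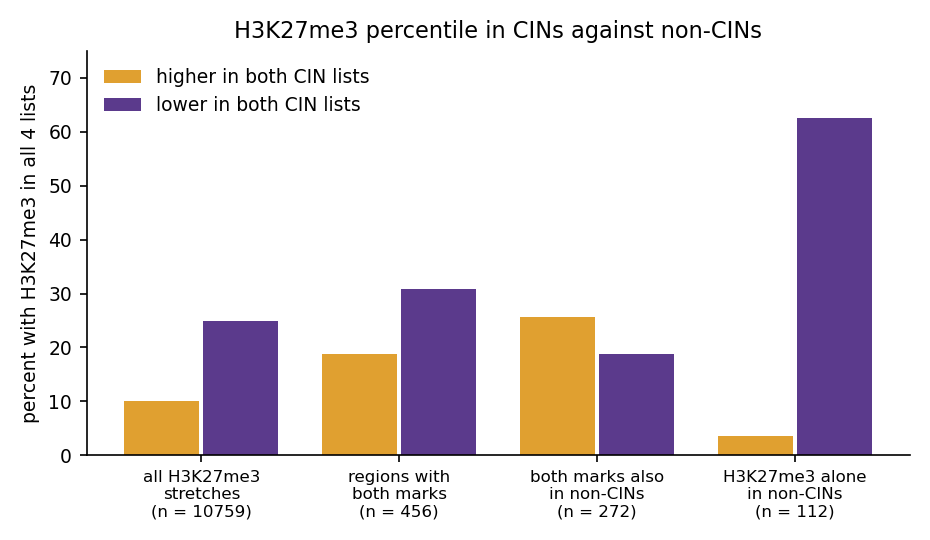
Percent of regions (vertical axis) whose H3K27me3 fold-enrichment percentile was higher (orange) or lower (purple) in both CIN lists than in both non-CIN lists, among those with H3K27me3 in all 4 lists. In the group with H3K27me3 alone in non-CINs 62.5% were lower in CINs, beside 24.9% of all H3K27me3 stretches.

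Regions with both marks in both populations included regulators of cortical patterning. At *Nr2f1* the region was 36431 bp (chr13:78161979-78198409), with H3K27ac over 35132 and 36428 bp in non-CINs and H3K27me3 over 21683 and 24625 bp in the CIN lists, against 22975 and 23121 bp in non-CINs. At *Otx1*, a homeobox gene of deep-layer neurons, the part with both marks was 10459 bp, and H3K27me3 covered 10473 and 14289 bp in the CIN lists, against 7266 and 9610 bp in non-CINs. *Dmrta2* and *Emx2*, both needed for early cortical patterning, had 8282 and 7070 bp. Under reciprocal overlap the *Dmrta2* region was lost, *Emx2* had 416 bp and *Otx1* had 6763 bp. The H3K27ac percentile was lower in both CIN lists than in both non-CIN lists at *Otx1*, *Dmrta2* and *Emx2*, and it was higher at *Nr2f1* (96.8 and 94.5 in the CIN lists, against 90.3 and 92.2).

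Among pallial transcription factor genes, H3K27me3 ranked higher in both CIN lists than in both non-CIN lists at 3 of the 8 that could be ranked (*Otx1*, *Lhx2* and *Pax6*) and lower at 2, beside 25.7% higher and 18.8% lower among all regions with both marks in non-CINs. At *Pax6* the H3K27ac percentile was 88.6 and 89.6 in the CIN lists, against 94.2 and 96.4 in non-CINs, and the H3K27me3 percentile was 96.4 and 97.2 in the CIN lists, against 53.8 and 83.8 in non-CINs. Its part with both marks was 6850 bp. It was 13338 bp without replicate 1 and 3468 bp under reciprocal overlap, and it was lost where at least 50% of the stretch had to carry both marks. At *Lhx2*, a LIM homeobox gene that specifies cortex, H3K27me3 covered 6949 and 8025 bp of 9190 bp in the CIN lists, against 3955 and 5263 bp in non-CINs. Of the 9 pallial genes with a region, 8 carried both marks in non-CINs and none carried H3K27me3 alone. H3K27ac ranked lower in both CIN lists at 5 of the 8 and higher at none. Over all regions with H3K27ac in all 4 lists 38.1% ranked lower and 20.1% higher, beside 26.6% and 18% of all H3K27ac stretches. The subpallial and interneuron transcription factor genes were also lower more often than higher, at 6 and 3 of the 11 that could be ranked.

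Of the 11 glial genes with a region, H3K27ac ranked lower in both CIN lists at 6 and higher at 1, beside 38.1% and 20.1% of all regions with both marks and 26.6% and 18% of all H3K27ac stretches. For H3K27me3 8 of the 11 could be ranked, with 4 higher and 1 lower, beside 25.7% and 18.8% of the regions with both marks in non-CINs and 10.1% and 24.9% of all H3K27me3 stretches. *Olig2* had 5294 bp with both marks (chr16:91221509-91226802), and H3K27me3 covered 5294 bp in each CIN list and 5294 and 4540 bp in non-CINs. Its H3K27ac percentile was 69.1 and 76.0 in the CIN lists, against 89.2 and 92.0 in non-CINs. *Olig1* had 2171 bp and *Nkx2-2*, a homeobox gene of oligodendrocyte precursors, 2803 bp, and at both H3K27ac ranked lower and H3K27me3 higher in CINs than in non-CINs. At a −log10 *q* of 4 both marks no longer met at *Olig1* and met over 270 bp at *Nkx2-2*. *Pdgfra*, the receptor gene of these precursors, had an H3K27ac percentile of 53.0 and 57.6 in the CIN lists, against 39.0 and 49.0 in non-CINs, and an H3K27me3 percentile of 97.9 and 98.5, against 99.2 and 99.1.

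The strongest regions with H3K27ac alone in non-CINs included signalling genes. At *Zfp521*, a zinc finger gene of neural progenitors (chromosome 18), H3K27ac covered 3856 bp in all 4 lists, and H3K27me3 covered 1881 and 1742 bp in CINs, with 0 bp in either non-CIN list. At *Etv4* H3K27me3 covered 1419 and 1189 bp of 3113 bp in CINs, with 0 bp in either non-CIN list. *Spry4*, an inhibitor of receptor tyrosine kinase signalling, had 1248 and 1387 bp of H3K27me3 in CINs, with 0 bp in either non-CIN list. The overlap at *Hey2*, a Notch target gene, was only 1 bp, from H3K27me3 of 211 and 17 bp. At a −log10 *q* of 4 the overlap at *Etv4* was 213 bp, against 1189 bp.

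The other named regions of this group had 302 to 1188 bp with both marks. *Zfp503*, a zinc finger gene of the striatum, had 497 bp with both marks, and *Tagln2*, an actin-binding protein gene, had 795 bp. *Gm15966* had 1188 bp and the intergenic region nearest to *Gm49033* had 525 bp. *Gli3*, the repressor of Hedgehog signalling, had 302 bp, with H3K27me3 over 326 and 2336 bp in CINs, with 0 bp in either non-CIN list. Where peaks had to reach a −log10 *q* of 4, both marks no longer met at *Zfp503*, *Tagln2*, *Gm49033* and *Gli3*, and *Gm15966* had 397 bp. Without replicate 1, *Gli3* had 2336 bp, *Gm15966* 2530 bp, *Tagln2* 1234 bp and *Gm49033* 1057 bp. Where at least 50% of the H3K27ac stretch had to carry both marks, *Zfp503* alone of the named regions with H3K27ac alone in non-CINs was kept.

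The gene lists showed where promoters met these regions. Over all protein-coding genes 300 of 21924 (1.37%) had a region at a promoter, and 207 of these had shared H3K27me3 over the promoter itself. Of 40 transcription factor genes of the subpallium and interneurons, 16 had a region, and 26 had shared H3K27ac and 27 shared H3K27me3 at a promoter. Of these 16, 5 (*Dlx1*, *Dlx2*, *Dlx5*, *Dlx6* and *Sp9*) had H3K27me3 alone in non-CINs, 10 had both marks and *Maf* had H3K27ac alone. Of 28 genes of GABA synthesis, transport and interneuron identity, 4 had a region (*Gad1*, *Gad2*, *Slc32a1* and *Erbb4*). At *Erbb4*, the neuregulin receptor gene, the overlap was 151 bp, and 489 bp without replicate 2.

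Glial genes met these regions at 11 of 30 promoters, and only 6 of the 30 had shared H3K27me3 over the promoter. Pallial transcription factors did so at 9 of 36. Axon guidance and migration genes had 6 of 48, among them *Gfra1*, a GDNF receptor gene, with 2077 bp, *Nrg1*, the neuregulin gene, with 1303 bp, *Sema6a* with 571 bp and *Robo2* with 379 bp. Secreted ligands and morphogen pathway genes had 4 of 56, which were *Gli2* (522 bp), *Gli3*, *Fgf15* (278 bp) and *Wnt5a* (78 bp). Several of these lengths were over 1.5 times longer with a replicate left out. Without replicate 1 *Gli2* had 3906 bp, *Sema6a* 1986 bp, *Robo2* 832 bp and *Fgf15* 448 bp, and without replicate 2 *Wnt5a* had 284 bp.

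Another 3 lists had no region at a promoter. All 62 patterning genes of other tissues, such as *Hox*, *Gata* and *Tbx* genes, had shared H3K27me3 at a promoter in CINs, and 0 had shared H3K27ac, so that by the rule 0 could have a region. Of 27 genes of Polycomb and Trithorax proteins and H3K27 enzymes, 25 had shared H3K27ac, 5 shared H3K27me3 and 0 a region. Among 22 microglial, endothelial and pericyte genes, 1 had shared H3K27ac and 0 a region. These lists were drawn up with earlier results of these data known, and are counts with no test.

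Promoter H3K27ac at GABAergic marker genes differed between the sorted populations, but 9 of these 10 genes have a region with both marks and were so chosen on H3K27ac in CINs. H3K27ac met the promoter of 9 of 10 GABAergic marker genes in each CIN list against 1 and 2 in the non-CIN lists. The exception in CINs was *Lhx6*. The mark met all 5 oligodendrocyte promoters in all 4 lists, 4 of 5 astrocyte promoters in CINs against 5 in non-CINs, 5 and 4 of 8 glutamatergic promoters in CINs against 3 and 5 in non-CINs, 1 of 5 microglial promoters in all lists and 0 of 5 endothelial promoters. Of the marker genes of other cell types, *Olig1*, *Olig2*, *Sox10*, *Pdgfra*, *Neurod6*, *Slc17a6*, *Fezf2* and *Gja1* had a region with both marks at a promoter. The part that other cells in the GFP+ sort had in these regions was not tested.

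Some regions lay at sequence that stood apart. Of 16 H3K27ac stretches off the assembled chromosomes 11 were regions with both marks, 9 of them on the unplaced contig Un_JH584304, where non-CIN replicate 1 had no H3K27ac peak in these regions. The longest of them had 6978 bp with both marks. At *Sfi1*, a gene of a centrosome protein on chromosome 11, both marks covered all 15723 bp in CINs, and in non-CINs H3K27me3 covered 15723 bp and H3K27ac 14496 and 14802 bp. Its H3K27me3 percentile was above 99 in all 4 lists. No filter for repeats or high-signal sequence was applied to the lists here, and the part that such sequence had in these regions was not tested.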

How the data were processed

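ChIP-seq at P2 for the 2 marks in both populations gave 8 lists of broad peaks (2 replicates of each mark and population). The 4 inputs entered through peak calling only. Reads were mapped by the authors to mm10 using BWA (0.7.15 in the submitters' processing notes) and filtered by SAMtools. MACS2 (2.2.7 in those notes) called broad peaks on each replicate, without its model or a local background. In the deposited lists, each peak has a score that is a multiple of its −log10 *q*. The authors' caller also gave its fold enrichment (a ratio of ChIP over input signal) and its significance as −log10 *p* and −log10 *q*. Read depth was not analysed here, and a missing peak means only that none was called.

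Peaks were merged across 500 bp or less, intersected between replicates, and overlapped between marks by at least 1 bp. A region met a non-CIN mark when it overlapped a merged peak by 1 bp. Genes and promoters came from GENCODE vM21 basic, and a region took the name of its nearest TSS. Shares have 95% Wilson intervals. The 3 properties tested were compared across regions by two-sided Fisher's exact tests with Benjamini-Hochberg adjustment. The replicates came from independent experiments, but *p* values run across regions and do not measure the spread between them. Named were the 10 longest overlaps, the 8 strongest regions without each mark in non-CINs, up to 4 promoters of each gene list and *Dlx1*, *Dlx2*, *Gad1* and *Gad2*. Of these, 1 region is not reported here. *Sp8*, *Nxph1* and *Pdgfra* were added after their values were seen. The regions and lists were chosen with earlier results of these data known. Replicate numbers are shared between groups, and the differences between replicates correlated between populations by 0.344 for H3K27me3 and 0.0399 for H3K27ac. Python 3.11.15, NumPy 2.4.6, SciPy 1.17.1 and statsmodels 0.14.6 were used, tested on simulated data.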

Additional observations from a re-analysis of the deposited data

Results flagged for a closer look

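At 10 named regions H3K27ac was longer in both CIN lists than in both non-CIN lists while the H3K27me3 percentile was lower in both. The choice of regions fixes the H3K27ac part of this, since H3K27ac covers every region in both CIN lists and can only be as long or shorter in non-CINs. The percentiles compare lists of different length, and 24.9% of all shared H3K27me3 stretches ranked lower in CINs. The difference between the marks was not tested. By bp with both marks in CINs these were *Dlx5/Dlx6* (26397), *Dlx1/Dlx2* (21039), *Gad2* (8136), the *Sp9* regions (6112 and 3303), *Gad1* (5853), *Slc32a1* (3282), *Gm14339* (1599), *Grik3* (1319) and *Gm20208* (157).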

How the results depend on the processing

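With every setting the promoter and CpG odds ratios stayed above 1 and past the threshold, down to 1.34 (50% of the stretch) and 1.35 (−log10 *q* of 4). The non-CIN H3K27ac odds ratio did so except under a reciprocal overlap of 50% between replicates (1.42, Fisher's exact test, adjusted *p* = 0.064). Without one replicate these odds ratios ranged from 2.19 to 3.87, 2.08 to 5.47 and 1.14 to 1.35. Mantel-Haenszel odds ratios, chosen after seeing the data, were 2.21, 1.94 and 1.92 over 4 bins of length and 2.87, 2.34 and 1.57 over 4 bins of the CIN H3K27ac percentile.

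The number of regions was 346 where at least 50% of the H3K27ac stretch had to carry both marks, 295 with reciprocal overlap and 285 with a −log10 *q* of at least 4, and 1500 to 1677 without one replicate. The share inside the H3K27me3 stretch was 41.3% with at least 200 bp, 67.1% with 50% of the stretch, 40.7% with −log10 *q* of 4, 52.6% with the H3K27me3 union and 30.2% to 34.4% without one replicate.

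The share without H3K27ac in non-CINs was 21.5% with a merging gap of 0 bp, 25.4% with 50% of the stretch, 12.2% with reciprocal overlap, 24.9% with −log10 *q* of 4, 22.9% for the part with both marks, 33.9% where absence from 1 list counted, and 29.1% to 34.6% without one replicate. The share without H3K27me3 was 11.7% with at least 200 bp, 10.1% with 50% of the stretch, 11.5% with reciprocal overlap, 9.82% with −log10 *q* of 4, 30.9% where absence from 1 list counted, and 25.6% to 30.3% without one replicate. The share with both marks in non-CINs was 37.4% with a gap of 0 bp, 46.5% with at least 200 bp, 49.5% with reciprocal overlap, 36.1% with −log10 *q* of 4, 33.5% for the part with both marks, and 44.8% to 45.2% without one replicate. With a replicate block the marks were intersected within each replicate number first. That must return the same 663 regions, promoter odds ratio (2.38) and CpG odds ratio (2.22). In non-CINs this setting read the whole CIN peaks that met a region, not the region itself. The share without H3K27ac was then 16.6%, without H3K27me3 8.14% and with both marks 48.6%, and the non-CIN H3K27ac odds ratio was 1.52. With 1 replicate left out, the non-CIN state was read in the remaining replicate only, so that absence from 1 list sufficed. The cause of the other changes was not tested. The 11 regions off the assembled chromosomes changed no call.

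Of the 40 named regions 36 kept both marks with at least 200 bp, 31 with −log10 *q* of 4, 26 with reciprocal overlap and 24 with 50% of the stretch. Those lost with −log10 *q* of 4 were *Olig1*, *Erbb4*, *Fgf15*, *Sema6a*, *Robo2*, *Zfp503*, *Tagln2*, *Gm49033* and *Gli3*, and reciprocal overlap lost both *Sp9* regions, *Dmrta2*, *Gm45560*, *Grik3*, *Gm14339*, *Gm15966*, *Gm49033*, *Sox2*, *Gli2*, *Gli3*, *Erbb4*, *Sema6a* and *Robo2*. Requiring 50% of the stretch lost *Pax6*, *Sox2*, *Zfp521*, *Etv4*, *Spry4*, *Hey2*, *Tagln2*, *Gm15966*, *Gm49033*, *Gm20208*, *Gli2*, *Gli3*, *Wnt5a*, *Erbb4*, *Sema6a* and *Robo2*. Depth was not analysed, so what it limits is unknown.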

Other observations

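H3K27ac in CINs alone, over H3K27me3 in all 4 lists, was also seen at genes outside the rule for named genes, chosen here after their values were seen. *Slc17a6*, the gene of a vesicular glutamate transporter, had a region of 258 bp at its promoter inside an H3K27me3 stretch, with H3K27ac over 258 bp in both CIN lists and 0 bp in both non-CIN lists and H3K27me3 over 258 bp in all 4. Of the 3 regions nearest to *Ets1*, an ETS factor gene, those of 670 and 1201 bp were intronic. They had H3K27ac in CINs alone and H3K27me3 throughout in all 4 lists, and the other *Ets1* region is not described. *Gja1*, an astrocyte gap junction gene, had the opposite state, with H3K27ac over 2205 bp in all 4 lists and H3K27me3 over 1232 and 1408 bp in CINs and 0 bp in non-CINs.

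*Gsx2*, a homeobox gene of the lateral ganglionic eminence, and *Emx1*, a homeobox gene of the pallium, each had 3 short regions inside H3K27me3 stretches with both marks in both populations. The *Gsx2* regions were 882, 577 and 443 bp and the *Emx1* regions 344, 1114 and 158 bp, none of which met a promoter.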
